A study of Mus musculus with 3 samples.

Results

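B cells were chosen by their marker transcripts in droplet single-cell RNA libraries of ectopic masses that grew in CD1 mice and were taken 5 days after implantation. A cell was counted as a B cell if it held at least 2 UMIs of Cd79a and at least 1 UMI of Ms4a1 or Cd79b, no UMI of Cd3e or Csf1r, and under 1% of its UMIs from Col1a1, Col1a2 and Col3a1. A UMI marks 1 captured transcript molecule. Cells also needed at least 500 UMIs, at least 300 genes and at most 15% mitochondrial UMIs. The rule took 407 of 21148 cells. Of these, 402 came from masses of Matrigel with rhBMP2 in mice given systemic activin A neutralizing antibody, labelled nAct Ab, and 5 from masses of Matrigel with rhBMP2 in mice given pre-immune control IgG. Masses of Matrigel alone gave 0. Matrigel is a basement membrane gel and rhBMP2 a recombinant growth factor that induces cartilage and bone. The labels name no IgG or antibody for the mice with Matrigel alone. These groups are called the antibody, IgG and Matrigel libraries. How many animals a library holds is not stated in the labels.

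B cells recognise antigen through a surface immunoglobulin that signals through CD79A and CD79B. A mature B cell that has not yet met antigen splices the same heavy chain transcript to IgM or IgD and carries 1 kind of light chain, kappa or lambda. Follicular B cells recirculate through lymphoid organs and carry IgD and the low-affinity IgE receptor CD23, the product of Fcer2a. Marginal zone B cells stay in the spleen and carry high levels of the complement receptor CD21, the product of Cr2, with little IgD or CD23.

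The antibody, IgG and Matrigel libraries held 38163880, 46317250 and 44252421 UMIs in 6113, 6065 and 9249 barcodes, of which 5967, 5958 and 9223 passed the quality limits. Each group had 1 library, so there was no replicate and no test. All intervals are at 95% and reflect counting error alone. CPM is the number of UMIs of a gene per 1000000 UMIs of the same cells. The antibody library shared 16 barcodes with the Matrigel library, 2 of them those of B cells, and 7 with the IgG library, 0 of them of B cells. Of 11 genes looked at for lymph node stroma, several were near 0 and others were not. Ccl19 had 1, 2 and 1 UMIs in the antibody, IgG and Matrigel libraries, Ccl21a had 2, 0 and 0, and Glycam1 had 9, 2 and 0. Mfge8 stood at 95.8, 213 and 113 CPM, Lyve1 at 63.2, 13.5 and 73.9 CPM and Cxcl12 at 32.7, 48.2 and 148.5 CPM in the same order, and these genes are not particular to that stroma. Red cell transcripts differed in the same order as B cells, with Hbb-bs, a beta globin, at 483, 159 and 36.6 CPM over all cells of the antibody, IgG and Matrigel libraries. The part of blood in the share of B cells was not tested.

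B cells made up 6.74% of the cells in the antibody library (exact Clopper-Pearson interval 6.11 to 7.40), 0.0839% in the IgG library (0.0273 to 0.196), and 0 of 9223 cells in the Matrigel library, where 3 cells, the floor used for a count of 0, would be a share of 0.0325% and the exact upper bound is 0.0400%. The share was 6.65 points higher in the antibody than in the IgG library (Newcombe interval 6.03 to 7.32). It was 6.74 points higher in the antibody than in the Matrigel library (6.13 to 7.40), and 0.0839 points higher in the IgG than in the Matrigel library (0.0203 to 0.196). This last difference rests on 5 cells. With Cd79a at 3 UMIs or more, or with Ms4a1 and Cd79b both required, it was 0.0504 points and its interval included 0 (-0.00291 to 0.148). Without the barcodes found in more than 1 library the 3 differences were 6.64, 6.73 and 0.0843 points. T cells were counted by a like rule: at least 2 UMIs over Cd3e, Cd3d and Cd3g, with at least 1 of Cd3e, and none of Cd79a, Ms4a1 or Csf1r. They made up 6.67% (398 cells), 1.88% (112 cells) and 0.141% (13 cells) of the antibody, IgG and Matrigel libraries. Among transcripts of resting T cells, Lef1, a transcription factor, stood at 226 CPM in antibody T cells (interval 199 to 255) and 58.2 CPM in IgG T cells (35.5 to 89.8). Ccr7, a receptor for entry into lymph nodes, stood at 114 CPM in antibody T cells (94.8 to 135) and 14.5 CPM in IgG T cells (4.72 to 33.9). Tcf7, a related factor, stood at 354 CPM in antibody T cells (320 to 390), 131 CPM in IgG T cells (95.5 to 175) and 302 CPM in the 13 Matrigel T cells (98.1 to 705). S1pr1, the receptor for exit from lymphoid tissue, stood at 99.4 CPM in antibody T cells (81.8 to 120) and 78.5 CPM in IgG T cells (51.8 to 114), with overlapping intervals. A share can differ because of B cells or because of the other cells in the suspension, and these cannot be told apart in a share.

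**Figure D1:**
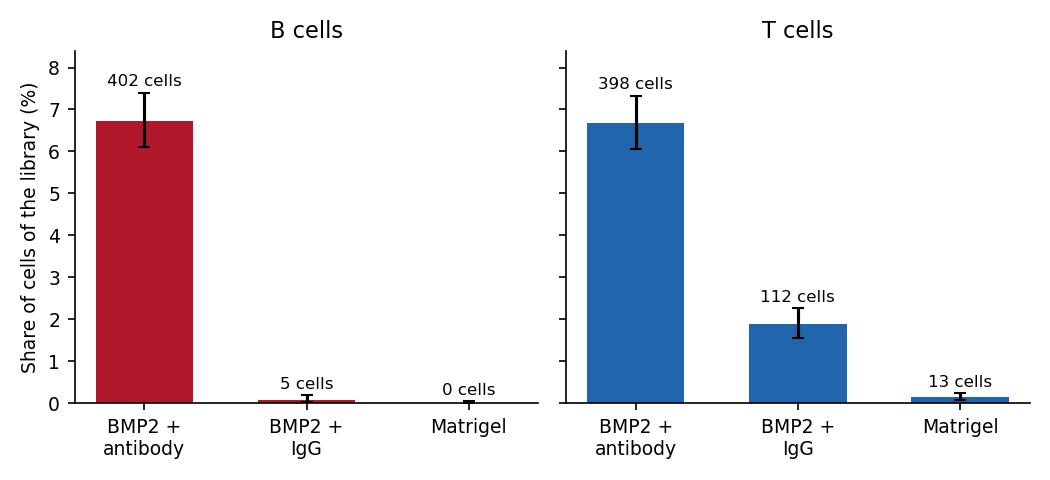
Share of cells (% of cells passing the quality limits) counted as B cells (left) and T cells (right) in the antibody, IgG and Matrigel libraries. Bars are 1 library each with exact 95% binomial intervals, and B cells are at 6.74% in the antibody library and at 0.0839% and 0% in the IgG and Matrigel libraries, while T cells are at 6.67%, 1.88% and 0.141%.

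The 5 cells of the IgG library varied among themselves. The first held 1193 UMIs with 1 Ighd, 2 Ighm, 2 Fcer2a and 8 Igkc UMIs. The second held 957 UMIs with 10 Ighm and 5 Igkc UMIs and no Ighd. The third held 2710 UMIs with 3 Ighd, 18 Ighm and 21 Igkc UMIs. The fourth held 2569 UMIs with 7 Ighm, 1 Fcer2a and 14 Igkc UMIs. The fifth held 1466 UMIs with no Ighm, 1 Igkc UMI and 17 UMIs of Lyz2, the lysozyme gene of macrophages. Ighm was thus present in 4 of the 5 cells and Cr2 in 0. Summed Ighm was 3444 CPM (3308 to 3584) in the B cells of the antibody library and 4160 CPM (2929 to 5734) in those of the IgG library. Summed Cd79a was 2424 CPM (2310 to 2542) in the antibody library and 1686 CPM (944 to 2781) in the IgG library. The intervals overlapped for both genes, at 37 and 15 UMIs in the IgG cells. Summed Ighd was 1574 CPM (1483 to 1670) in the antibody library and 450 CPM (123 to 1151) in the IgG library, from 4 UMIs, 3 of them in 1 cell. These intervals did not overlap, but they leave out the spread among cells. With 5 cells, no difference between the libraries is read from them. Further values are those of the antibody library unless another is named.

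At the threshold of 2 Cd79a UMIs, 83 antibody cells lay just inside with 2 UMIs and 65 otherwise matching cells lay just outside with 1 UMI. Ighd had a UMI in 85.5% of the 83 cells and in 81.5% of the 65. The rule left out 8 further cells for a Cd3e UMI, 17 for a Csf1r UMI, 2 for collagen and 19 for lack of Ms4a1 and Cd79b. Those left out for Csf1r had a median depth of 7629 UMIs, against 1647 UMIs in the B cells.

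The B cells held few UMIs, with 534 to 9349 UMIs and a median of 1647, and a median of 854.5 genes. T cells of the same library had a median of 2129 UMIs, and macrophages, counted with at least 2 Csf1r UMIs and a Lyz2 or C1qa UMI but no Cd79a, Ms4a1 or Cd3e UMI, a median of 5550 UMIs. Ribosomal protein genes took 24.97% of the UMIs in B cells, 25.2% in T cells and 14.3% in macrophages. Immunoglobulin genes took 1.20%, 0.0190% and 0.00380% in the same order. Transcripts of Cd74, H2-Aa, H2-Ab1 and H2-Eb1, which present antigen, took 2.50%, 0.0165% and 1.76%.

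Genes of B cell identity outside the rule marked the cells. Cd79a, which encodes the signalling chain of the B cell receptor (chromosome 7, 24897381 to 24902197, mm10), stood at 2424 CPM, and Ms4a1, which encodes CD20 (chromosome 19, 11249675 to 11266241), at 1015 CPM. Both chose the cells, as did Cd79b at 1241 CPM, so their levels are a description. Pax5, the factor that holds B cells to their fate, stood at 481 CPM in B cells with 0 UMIs in T cells, at least 179-fold higher against a floor of 3 UMIs. Ebf1, an early B lineage factor, was in 98.8% of B cells, at 2777 CPM in B cells and 12.5 CPM in T cells, 222-fold higher (132 to 406). Ighd, which the rule did not use, was in 87.6% of the B cells. Of 14 T cell genes 5 were at 0 UMIs, Cd3e among them by the rule. The list summed to 89.7 CPM in B cells and 6904 CPM in T cells, which were chosen on Cd3e, Cd3d and Cd3g.

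Over all genes with at least 10 UMIs in B or T cells, 963 of 8616 were at least 2-fold higher in B cells (11.2%) and 1481 at least 2-fold lower (17.2%), with 1 UMI added to each sum. Against macrophages 2953 of 12280 genes were higher (24%) and 2819 lower (23%). Since the marker rules separate these classes, the counts describe them and nothing is read from them. Beyond the genes of the rule, the highest ratios of B cells over T cells were those of Mef2c, a factor that acts downstream of the B cell receptor (963 UMIs in B cells and 0 in T cells, at least 510-fold higher), Bank1, a scaffold of B cell receptor signalling (at least 235-fold), and Bcl11a, a lymphoid transcription factor (at least 218-fold). Ly6d had 754 UMIs in B cells and 1 in T cells, a ratio of 1198 (214 to 47390). Fcmr, which encodes a receptor for IgM, was at least 188-fold higher. Over macrophages the highest ratios were those of Ly6d (754 UMIs in B cells and 1 in macrophages), Iglc2, Igkc (4311-fold, 2724 to 7283), Fcmr, Pax5, Ighd (2364-fold, 1280 to 4943), Blk, a kinase of the Src family, and Ebf1 (1895-fold, 1248 to 3032).

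All 12 genes of the identity list, 3 of which the rule used, were higher in B cells than in T cells. Of 16 transcription factors of B cells, 12 were higher and 0 lower, with a median log2 ratio of 2.88, against -0.10 over all genes tested. For this and the next lists, 11.2% of all genes were higher and 17.2% lower than in T cells. Against macrophages these shares were 24% and 23%. Spib was at 182 CPM in B cells and 0 in T cells. Bach2, which restrains plasma cell differentiation, was at 275 CPM in B cells and 63.6 CPM in T cells. Foxo1 and Ikzf1, which T cells share, were not 2-fold apart, at 223 and 270 CPM in B cells and 232 and 354 CPM in T cells. Of 17 measured genes of B cell receptor signalling, 14 were higher and 0 lower. Syk, the kinase that CD79A recruits, stood at 464 CPM in B cells and 1.79 CPM in T cells, 259-fold (71.1 to 2148). Btk, the kinase downstream of it, was at 137 and 1.79 CPM in B and T cells, and the adaptor Blnk at 238 and 1.79 CPM. Against macrophages 14 of 18 were higher and 1 lower, Fcgr2b, the inhibitory IgG receptor, at 140 CPM in B cells and 1069 CPM in macrophages. All 13 genes of the antigen presentation list were higher in B cells than in T cells. Against macrophages 6 of the 13 were higher, 1 was lower and 6 were neither. Cd74, the invariant chain, was at 14620 CPM in B cells, 73.4 CPM in T cells and 8634 CPM in macrophages. H2-Ob, part of the H2-O modulator of B cells, stood at 370, 0.896 and 2.13 CPM in the same order.

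IgM and IgD transcripts were found together in most of the B cells. Ighm (chromosome 12, 113418558 to 113422730) stood at 3444 CPM (3308 to 3584) and Ighd (chromosome 12, 113406604 to 113416324) at 1574 CPM (1483 to 1670). Both lie on the minus strand, where Ighd follows Ighm. Ighm had a UMI in 98.5% of cells, with 0 to 22 UMIs per cell and a median of 6, and Ighd in 87.6%, with 0 to 12 and a median of 2. Ighd and Ighm were both detected in 350 cells (87.1%, 83.4 to 90.2). Ighm alone was found in 46 cells (11.4%, 8.50 to 14.97), Ighd alone in 2 and neither in 4. The median depth was 1660 UMIs in cells with both and 1524 in those with Ighm alone. Among 346 cells with at least 5 UMIs of the genes together, Ighd took a median of 33.3% of them, with quartiles of 18.2% and 45.2%. Thus 29 of these cells had no Ighd UMI, and in 77 Ighd took at least as many UMIs as Ighm.

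For comparison with other cell types each cell was thinned to 1000 UMIs, which left 386 B cells, 389 T cells and 2263 macrophages and left out 16, 9 and 14 cells. Ighm was then in 94.8% of B cells (92.1 to 96.8), 15.2% of T cells (11.8 to 19.1) and 2.52% of macrophages. Ighd was in 73.3% of B cells (68.6 to 77.7), 0 of 389 T cells and 0.0884% of macrophages. Fcer2a (chromosome 8, 3681737 to 3694175) was in 39.9% of B cells (35.0 to 45.0), 0 of 389 T cells and 0.0442% of macrophages. Cr2 (chromosome 1, 195136811 to 195176716) was in 26.4% of B cells (22.1 to 31.1), 0 of 389 T cells and 0.0442% of macrophages. Before thinning the shares in B cells were 53.7% for Fcer2a and 39.3% for Cr2, at levels of 512 CPM (461 to 568) and 367 CPM (324 to 415). These shares moved with depth. At 500 UMIs per cell Ighd was in 56.2% of B cells and Fcer2a in 24.1%, and at 2000 UMIs in 82.7% and 54.3% of the 81 cells deep enough. A cell without a UMI is therefore not shown to lack the transcript.

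**Figure D2:**
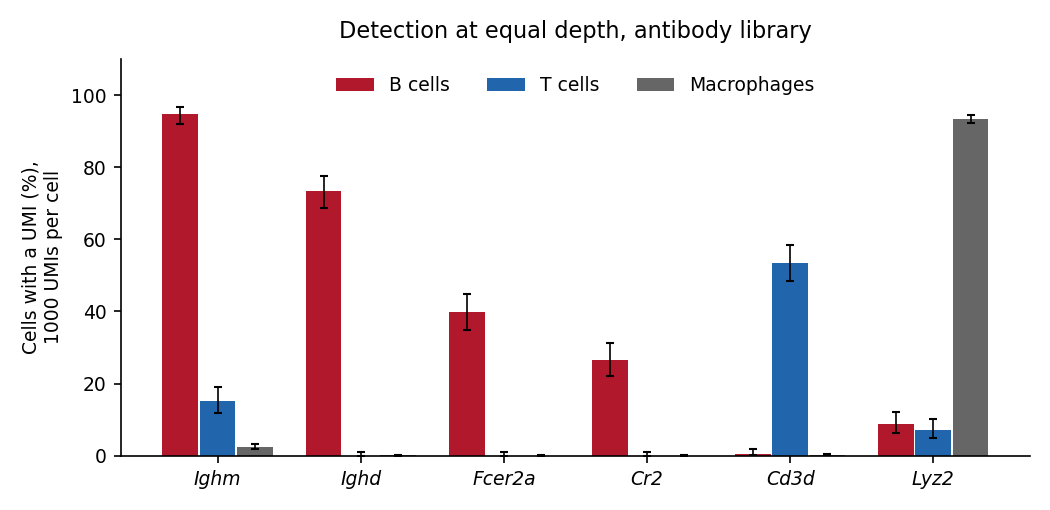
Share of cells (%) with a UMI of the genes Ighm, Ighd, Fcer2a and Cr2, and of the T cell gene Cd3d and macrophage gene Lyz2, in B cells, T cells and macrophages of the antibody library after thinning to 1000 UMIs per cell. Error bars are exact 95% binomial intervals. The first 4 genes are in 26.4% to 94.8% of B cells, and Ighd, Fcer2a and Cr2 in 0 of 389 T cells.

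Ighm outside B cells did not go with the light chain. In T cells Ighm had 182 UMIs and Igkc 18, and in macrophages 448 and 18, whereas B cells had 2420 Ighm and 3631 Igkc UMIs. Macrophages held Ighm at 29.8, 55.7 and 132 CPM in the antibody, IgG and Matrigel libraries. In the Matrigel library, with 0 B cells by the rule, these were 2246 Ighm UMIs in 33.4% of macrophages, beside 0 Igkc UMIs. What gave these Ighm counts was not tested. Ighd, Fcer2a, Cr2 and Igkc, which were all under 20 CPM in T cells and macrophages, marked B cells more narrowly.

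Fcer2a and Cr2 were detected in overlapping sets of cells. Both were detected in 86 cells (21.4%, 17.5 to 25.7), Fcer2a alone in 130 (32.3%, 27.8 to 37.2), Cr2 alone in 72 (17.9%, 14.3 to 22.0) and neither in 114 (28.4%, 24.0 to 33.0). After thinning, 43 of 386 cells held both, against 40.7 if the genes were unrelated. Cr2 was in 27.9% of the thinned cells with Fcer2a and in 25.4% of those without it. Pearson's r over the 402 cells was 0.018, and neither gene had an r above 0.19 with any of 2365 genes found in at least 10% of cells. The nearest patterns to Fcer2a were those of Mybbp1a (r = 0.17) and Pabpc4, and to Cr2 those of Actb (r = 0.19) and Sdc4. In counts this sparse such values are no finding.

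Ighd stood at 1526 CPM (1343 to 1727) in cells with Fcer2a and Cr2, 1645 CPM (1480 to 1824) with Fcer2a alone, 1485 CPM (1285 to 1707) with Cr2 alone and 1597 CPM (1420 to 1789) with neither, and these intervals overlapped. Between the 216 cells with and the 186 without a Fcer2a UMI, 193 of 5307 genes were at least 2-fold higher (3.64%) and 215 at least 2-fold lower (4.05%). None of the 12 identity genes, 15 measured transcription factors or 20 activation genes was among them. The rule used 3 of these identity genes, which limits how far apart those could stand in any subset. The ratio of cells with to cells without Fcer2a was 1.03 for Ighd (0.912 to 1.16) and 0.857 for Ighm (0.790 to 0.928). Between the 158 cells with and the 244 without a Cr2 UMI, 243 of 5355 genes were higher (4.54%) and 212 lower (3.96%), again with none of the 12 identity genes. The 20 activation genes had a median log2 ratio of -0.39 between cells with and without Cr2, against 0.01 over all genes tested, and 1 of them was 2-fold lower. Ighm had a ratio of 0.869 (0.8003 to 0.944) and Cd79b one of 0.757 (0.657 to 0.871). Cd79b took part in the rule, so its ratio is a description. Between the 352 cells with and the 50 without an Ighd UMI, 407 of 6380 genes were higher (6.38%) and 554 lower (8.68%), with few UMIs in the 50 cells. Fcer2a had a ratio of 1.57 (1.07 to 2.37) and Cr2 one of 1.73 (1.08 to 2.92) in that comparison, which rests on those 50 cells. Among thinned cells with and without Ighd, Fcer2a was in 42.8% and 32.0%, and Cr2 in 27.2% and 24.3%. In the reverse comparison, of cells with and without Cr2, Ighd had a ratio of 0.929 (0.822 to 1.05).

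The genes farthest apart between these subsets were mostly those of other cell types, and a few cells held them. Hba-a1, an alpha globin, had 55 UMIs in cells with Fcer2a and 4 in those without, but 1 cell held 78.0% of them. F13a1 and Pf4, genes of macrophages and platelets, had 3 and 8 UMIs in cells with Fcer2a and 49 and 58 in those without, with 84.6% and 69.7% in 1 cell. The chemokine Ccl6 had 129 UMIs in cells with Cr2 and 11 in those without, 62.1% of them in 1 cell, and Hmox1, heme oxygenase, 29 and 2, with 83.9% in 1 cell. Fn1, fibronectin, had 176 and 25 UMIs in cells with and without Fcer2a, and C1qc, a complement chain, 2 and 27. Over 12 macrophage genes, 242 B cells held 0 UMIs, 109 held 1, 45 held 2 to 4, and 6 held 5 or more. These 6 cells held 63.5% of the 564 UMIs, at a median depth of 3746 UMIs, and 2 of them were among the cells with the highest doublet scores. Csf1r, a defining gene of macrophages, is at 0 by the rule, while Lyz2 had 186 UMIs in 11.7% of B cells. With all cells, 4 genes had an interval of the ratio wholly past 2-fold on the higher side in cells with Fcer2a, and 12 on the lower side. Without the 6 cells there were 2 higher, Hba-a1 and Srm, and 0 lower. For Cr2 there were 21 higher and 4 lower with all cells, and 2 higher and 3 lower without the 6 cells. Of the macrophage list, 9 genes were measured with all cells and 4 without the 6 cells, of which 0 were 2-fold apart in either comparison. The 6 cells were chosen by their UMIs of this same list. The loss of that difference is thus built in, and nothing is read from it. Arg1, arginase, had 69 UMIs in cells with Ighd and 0 in those without, 84.1% of them in the same 6 cells. Snx27 and Gm8186, among the genes lowest in cells with Ighd, had 13 and 16 UMIs there and 9 and 11 in the 50 cells without.

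Transcripts of the follicular list were all present. Ccr7 stood at 205 CPM in B cells (173 to 241), 114 CPM in T cells and 5.53 CPM in macrophages. Cxcr5, the receptor for the chemokine of B cell follicles, was at 115 CPM in B cells (91.6 to 143), 6.27 CPM in T cells and 0 in macrophages. Klf2, a factor of resting recirculating lymphocytes, was at 544, 356 and 266 CPM in the same order. S1pr1, the exit receptor, was at 75.4 CPM in B cells and 99.4 CPM in T cells. Of the 8 genes, 4 were at least 2-fold higher than in T cells and 0 lower, and all 8 were higher than in macrophages. Over all genes 11.2% were higher and 17.2% lower than in T cells, and 24% were higher than in macrophages.

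Many genes of other B cell states had few or 0 UMIs, while some that mature B cells share did not. Of the marginal zone list, Cd9 had 8 UMIs in 0.498% of the cells, S1pr3 5 UMIs, Myof 3 and Fcrl5 2, while Cd1d1 had 16 UMIs (22.8 CPM, 13.0 to 37.0) and Dtx1, a Notch target, 24. Mzb1, which also serves other B cells, stood at 270 CPM and Plac8 at 216 CPM. Cr2, which marginal zone B cells carry at high levels, stood at 367 CPM with a UMI in 39.3% of cells. Of the 12 genes of the marginal zone list, 4 were in at least 10% of B cells. Of the 9 measured against T cells, 4 were higher, 2 lower and 3 neither. Of the B-1 list, Cd5, Ctla4 and Zbtb32 had 0 UMIs and Spn 1 UMI, and the interval of 0 UMIs reaches 5.25 CPM. Other B-1 markers were present, with S100a6 at 172 CPM in 10.2% of B cells and Plac8 in 22.4% of them. S100a6 stood at 2051 CPM in T cells and 3958 CPM in macrophages. T cells held Cd5 at 191 CPM and Spn at 187 CPM. Of the germinal centre list, Gcsam and Nuggc had 0 UMIs, S1pr2 2 and Rgs13 5. Bcl6, which T cells also hold at 57.3 CPM, was at 84.0 CPM. Plasma cell genes were at 2 UMIs for Jchain, the joining chain of secreted antibody, 1 for Prdm1, the factor of plasma cells, and 0 for Tnfrsf17, while Irf4 stood at 205 CPM. The 12 genes of the plasma cell list summed to 777 CPM in B cells, 522 CPM in T cells and 552 CPM in macrophages. Of them, 3 were in at least 10% of B cells. Of the 8 measured against T cells, 2 were higher, 2 lower and 4 neither. Of the immature list, Rag1, Rag2 and Dntt, which assemble receptor genes, and Igll1, part of the surrogate light chain, had 0 UMIs, and Cd93 had 5. Cd24a, which is high in transitional B cells but also present in mature ones, had 257 UMIs (366 CPM) in 41.0% of cells. Vpreb3, which in mice is also found in mature B cells, had 127 UMIs in 26.4% of cells.

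**Figure D3:**
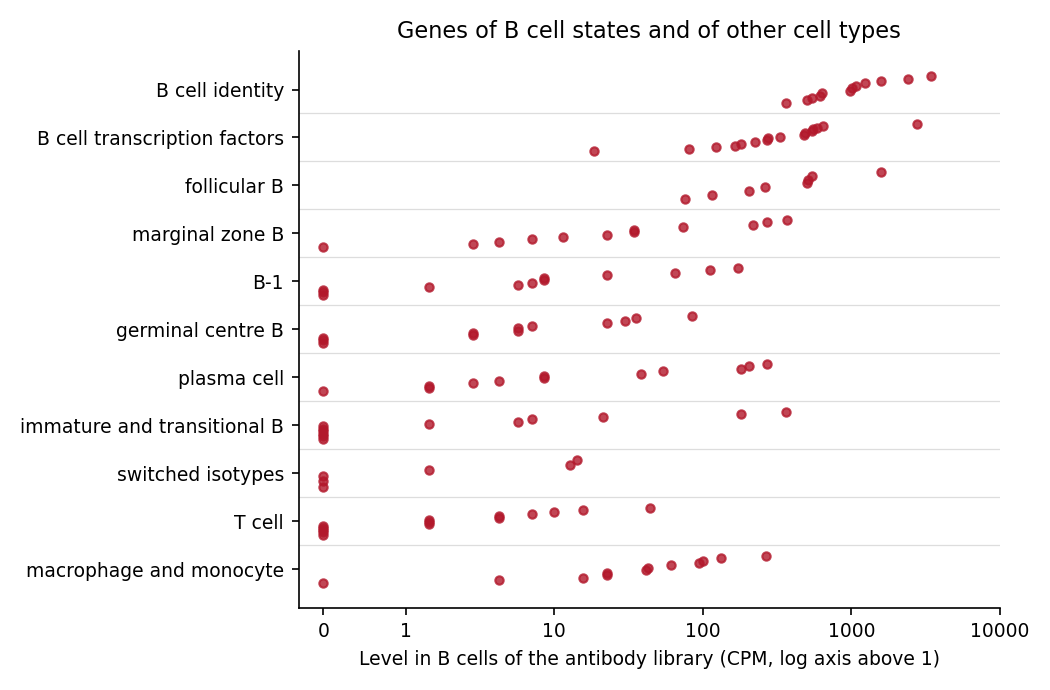
Levels (CPM over the 402 B cells of the antibody library, log axis above 1) of the genes of 11 lists; each point is 1 gene. Genes of B cell identity and of follicular B cells all lie above 75 CPM. Lists with members at 0 include the marginal zone and plasma cell lists with 1 each, the B-1, germinal centre and switched lists with 3 each and the immature list with 6.

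Switched heavy chains were rare. Ighg2b had 10 UMIs, Ighg3 9 and Igha 1, and Ighg1, Ighg2c and Ighe had 0. A switched isotype had at least 1 UMI in 11 of 402 cells (2.74%, 1.37 to 4.84) and at least 2 UMIs in 2 cells (0.498%, 0.0603 to 1.79). The highest count of a cell was 9 UMIs, of Ighg2b. Of 7 memory B cell genes 3 were at 0 UMIs, Cd80 and Nt5e among them, and Cd27 stood at 25.6 CPM in B cells and 211 CPM in T cells. Cd38 stood at 151 CPM in B cells and 3.58 CPM in T cells, and Cd86 at 25.6 and 6.27 CPM. Of 4 measured genes of the list, 2 were higher and 2 lower than in T cells. Over all genes 11.2% were higher and 17.2% lower. Variable segments were seldom covered by these 3' libraries: 15 cells held a heavy and 22 a kappa segment UMI, over 183 and 160 segments in the files. Whether the cells were clonally related was not tested.

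UMIs of kappa and lambda constant genes were found together in most of the cells. Whether the lambda UMIs are those of a light chain the cell uses was not tested. Igkc (chromosome 6, 70726435 to 70726966) was in 98.8% of B cells, with a median of 8 UMIs per cell, and 3631 UMIs in all. A UMI of Iglc1, Iglc2 or Iglc3 was in 351 cells (87.3%), with a median of 3 per cell and 1212 UMIs in all. Of 372 cells with at least 5 light chain UMIs, 163 had at least 80% from Igkc, 3 had at least 80% from the lambda genes and 206 had neither (55.4%, 50.2 to 60.5). The 163 cells held 1813 Igkc and 224 lambda UMIs, and the 3 cells held 2 and 32. With at least 20 light chain UMIs 24 of 48 cells were mixed (35.2% to 64.8%). Iglc2 was at 1103 CPM in B cells, 1.79 CPM in T cells and 0.133 CPM in macrophages, and Igkc at 5168, 16.1 and 1.20 CPM. Iglc2 had 775 UMIs in 308 cells and Iglc3 328 UMIs in 208 cells, with 11.6% and 12.2% of the UMIs in 10 cells, while Iglc1 had 109 UMIs in 64 cells with 40.4% in 10 cells. Lambda variable segments had 0 UMIs over 3 segments in the files.

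The ends of the coding regions, from GENCODE M21 transcripts (GRCm38, the assembly of mm10), show how alike the lambda genes are in that stretch. Each sequence is the last 120 coding bases with the stop codon, 5′ to 3′, and capitals mark bases that differ from Iglc2. Iglc2 lies at chr16:19198536-19198655, Iglc3 at chr16:19065365-19065484 and Iglc1 at chr16:19061752-19061871, all on the minus strand, and Igkc at chr6:70726638-70726757 on the plus strand, printed without marks.
Iglc2: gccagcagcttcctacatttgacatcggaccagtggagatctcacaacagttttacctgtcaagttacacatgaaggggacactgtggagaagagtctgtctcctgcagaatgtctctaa
Iglc3: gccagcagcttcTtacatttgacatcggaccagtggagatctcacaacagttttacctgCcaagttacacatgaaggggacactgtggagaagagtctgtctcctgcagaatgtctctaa
Iglc1: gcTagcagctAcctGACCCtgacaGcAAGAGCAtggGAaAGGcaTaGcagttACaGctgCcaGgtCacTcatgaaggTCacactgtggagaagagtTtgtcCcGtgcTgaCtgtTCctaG
Igkc: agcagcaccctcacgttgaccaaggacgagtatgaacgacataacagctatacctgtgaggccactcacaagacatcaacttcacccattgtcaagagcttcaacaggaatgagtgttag

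Iglc3 differed from Iglc2 at 2 of the 120 bases (98.3% identity), so UMIs could be divided between them and their separate counts are uncertain. Iglc1 differed from Iglc2 at 39 bases (67.5% identity). The sum over the lambda genes does not depend on how the counted UMIs are divided among them. If reads that match several of these genes were left out of the counts, the sum would be too low. Whether reads were left out was not tested. Only the coding ends were compared, not the stretches past the stop codon. The Igkc end shown is that of another gene family and was not aligned to the lambda genes.

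**Figure D4:**
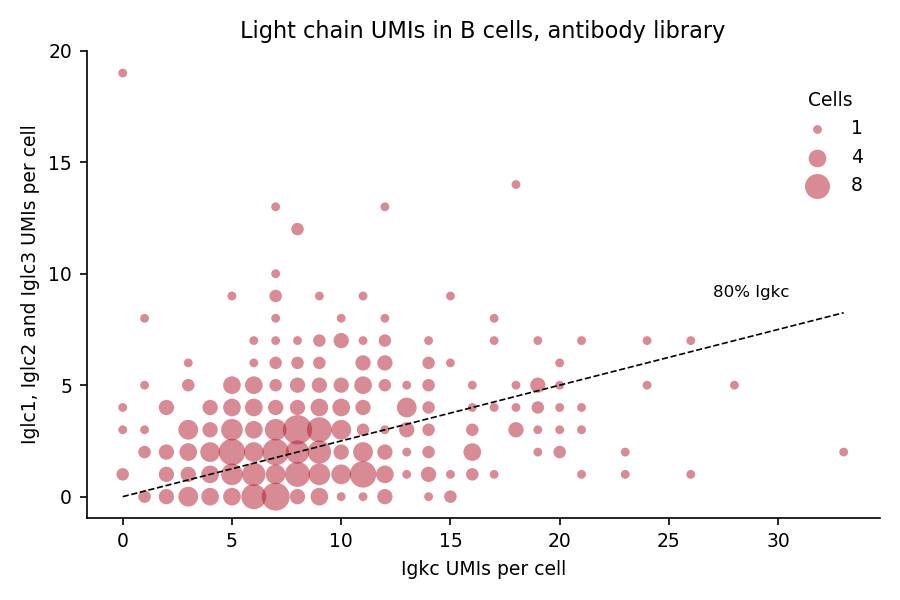
UMIs of Igkc (x axis) against those of Iglc1, Iglc2 and Iglc3 together (y axis) in each of the 402 B cells of the antibody library; circle area is the number of cells at that pair of values, and the dashed line marks 80% of light chain UMIs from Igkc. Of cells with at least 5 light chain UMIs, 206 lie between the limits for kappa and lambda and 163 on the kappa side.

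Activation and immediate early genes varied from cell to cell. The 20 genes took a median of 0.859% of a B cell's UMIs, from 0.0413% to 2.67%, with quartiles of 0.512% and 1.19%. Junb, part of the AP-1 factor, stood at 2909 CPM in B cells, 2051 CPM in T cells and 924 CPM in macrophages. Dusp2, a phosphatase of activated lymphocytes, was at 845, 322 and 25.1 CPM in the same order, and Egr3, which antigen receptor signals induce, at 280, 60.0 and 5.06 CPM. Cd83 was at 354 CPM in B cells and 8.06 CPM in T cells, and Cd69, an early activation marker, at 286 and 266 CPM. Cd86, a costimulatory ligand of activated B cells, was at 25.6 CPM from 18 UMIs. Of the 20 genes, 7 were at least 2-fold higher than in T cells and 1, Nr4a3, was lower, where 11.2% and 17.2% of all genes were. Their median log2 ratio was 0.62, against -0.10 over all genes tested.

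Leiden clustering split the 402 cells into 6 sub-clusters of 100, 92, 74, 68, 63 and 5 cells, which stayed unnamed. The activation list summed to 13030, 5081, 11400, 7931, 5528 and 6756 CPM in them. Junb was at 4212 CPM in sub-cluster 1, 3726 in sub-cluster 3 and 1735 in sub-cluster 2. Since these genes took part in the clustering, the values describe it. Ighd ranged over 1419 to 1809 CPM and Fcer2a over 460 to 595 CPM in the 5 larger sub-clusters. Cr2 was at 250 CPM (181 to 337) in sub-cluster 1 and 463 CPM (359 to 588) in sub-cluster 2. The sub-cluster of 5 cells had a median of 4290 UMIs, 12850 CPM over the macrophage list and 876 CPM of Ighm, against at most 393 CPM of the macrophage list elsewhere.

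**Figure D5:**
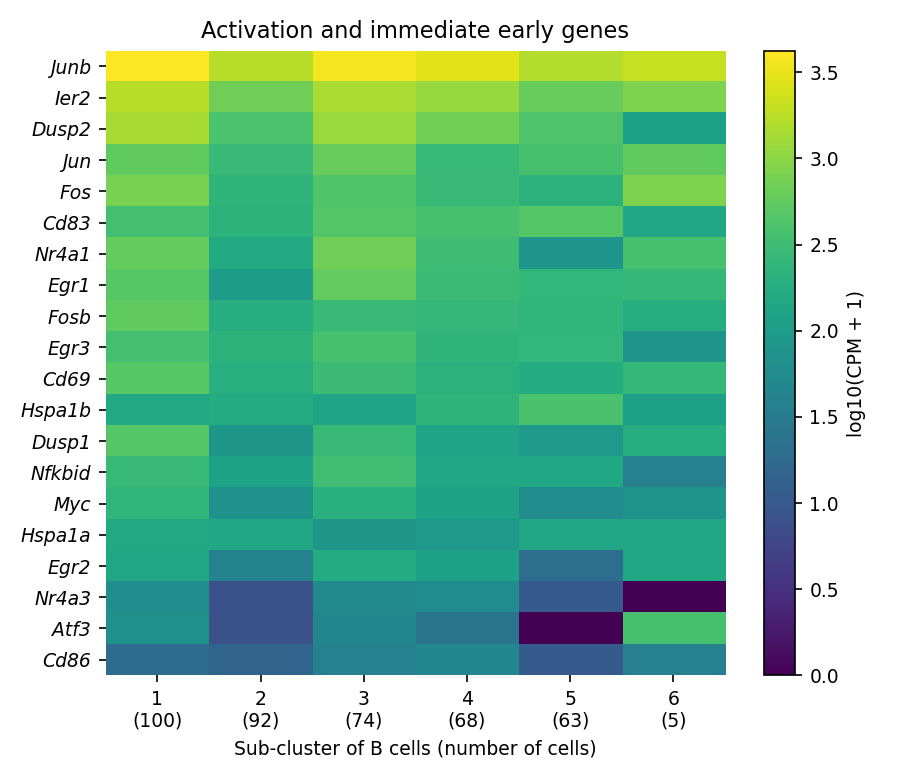
Level, as log10 of CPM plus 1, of the 20 activation and immediate early genes (rows) in the 6 sub-clusters of B cells (columns, with their number of cells). Sub-clusters 1 and 3 are brighter than 2 and 5 over most rows, with Junb at 4212 and 3726 CPM against 1735 and 1589 CPM.

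Transcripts of division and of an interferon response were mostly lower in B cells than in T cells. Mki67 had 2 UMIs in B cells (2.85 CPM), and stood at 165 CPM in T cells, a ratio of 0.0173 (0.00208 to 0.0633), and Ube2c had 0 UMIs. Of 15 proliferation genes, 0 were higher and 13 lower than in T cells, with a median log2 ratio of -2.27, where 17.2% of all genes were lower and their median was -0.10. Against macrophages 2 were higher, 7 lower and 6 neither, with a median of -0.62, where 23% of all genes were lower and their median was 0.12. Pcna was at 141 CPM in B cells and 147 CPM in T cells. Of 9 measured interferon-stimulated genes, 0 were higher and 7 lower than in T cells, with a median log2 ratio of -2.65, beside the same 17.2% and -0.10 over all genes. Isg15 stood at 15.7 and 107 CPM in B and T cells, and Ifi27l2a at 228 and 1635 CPM.

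Receptors of the TNF family that B cells need for survival and help were present. Tnfrsf13c, the BAFF receptor, was at 192 CPM in B cells and 2.69 CPM in T cells, Tnfrsf13b, which encodes TACI, at 172 and 27.8 CPM, and Cd40, which receives T cell help, at 111 and 0.896 CPM. Of 7 measured genes of that list, 5 were higher than in T cells and 1, Cd27, was lower, where 11.2% and 17.2% of all genes were. The BAFF gene Tnfsf13b had 0 UMIs in B cells and stood at 4.13 CPM in macrophages. Among homing genes, Cxcr4 was at 625 CPM in B cells and 171 CPM in T cells, and Ccr6 at 76.9 and 10.7 CPM. The integrin chains Itgb7 and Itgal were lower, at 103 and 49.8 CPM in B cells and 401 and 208 CPM in T cells, and Cxcr3 had 0 UMIs in B cells. Of 13 measured homing genes 4 were higher and 3 lower, with a median log2 ratio of 0.28. Over all genes 11.2% were higher and 17.2% lower, with a median of -0.10, so the share of lower homing genes is near that over all genes. Ltb, lymphotoxin beta, which organises lymphoid tissue, was at 628 CPM in B cells and 744 CPM in T cells, and Tnf at 122 and 152 CPM. Il12a, a chain of IL-12 and IL-35, had 18 UMIs in B cells and 0 in T cells, at least 9.54-fold higher. Il10 and Csf2 had 0 UMIs and Il6 had 2.

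Genes of the activin, TGF-beta and BMP pathways were measured because the antibody blocks activin A, a ligand of this family that binds ACVR2 receptors paired with ACVR1B and signals through SMAD2 and SMAD3. Among receptors, Acvr1b stood at 37.0 CPM in B cells (24.2 to 54.2) and 24.2 CPM in T cells, Acvr2a at 4.27 CPM from 3 UMIs, and Acvr2b at 0 UMIs. Tgfbr2, a TGF-beta receptor, was at 219 CPM in B cells (186 to 257) and 165 CPM in T cells, and Tgfbr1 at 27.0 and 37.6 CPM. The BMP receptors Bmpr1a and Acvr1 had 0 UMIs and 1 UMI. Smad2 and Smad4 were at 32.7 and 64.0 CPM in B cells, and Smad3 had 2 UMIs. Smad7, an inhibitor that the pathway itself induces, was at 211 CPM in B cells and 489 CPM in T cells, 2.32-fold lower. Id3, which BMP and antigen receptor signals induce, was the gene counted as higher than in T cells, at 646 CPM in B cells and 250 CPM in T cells (2.59-fold, 2.22 to 3.01), and Id2 stood at 51.2 and 752 CPM. Of 22 measured genes of 28, 1 was higher and 6 were lower than in T cells, where 11.2% and 17.2% of all genes were. Their median log2 ratio was -0.44, against -0.10 over all genes. Tgfb1 was at 535 CPM in B cells and 277 CPM in T cells, and Inhba, the subunit of activin A, had 2 UMIs. With 1 library per group and 5 B cells in the IgG library, whether the antibody changed these genes in B cells could not be tested.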

How the data were processed

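The deposited matrices hold UMI counts per gene and barcode, not normalized, per the file headers. The chemistry was v3 of the 10x Genomics 3' kit, per the labels, and reads were counted with Cell Ranger 3.0.2 on mm10, per the submitters' processing notes. The sources used here do not give the annotation release or cell calling settings. Of 31017 gene IDs, 30976 (99.9%) matched GENCODE M21, from which positions and sequences were read. No column was left unused for lack of a sample (0).

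The members, gene lists and named genes were chosen with earlier results of these data known. Members followed the marker rule given in the report. UMIs of rows sharing a symbol were added. Scrublet (scanpy 1.11.5) marked 4, 3 and 2 doublets in the antibody, IgG and Matrigel libraries, under 0.5% of cells, too few for use. No cell was removed for its score, and leaving out the highest scores, at 0.8% per 1000 cells, was an alternative. UMIs were summed per class and scaled to CPM, with exact Poisson intervals, exact conditional binomial intervals for ratios, Clopper-Pearson intervals for shares and Newcombe intervals for their differences (scipy 1.17.1, numpy 2.4.6). Genes were counted at a ratio of 2 or more with at least 10 UMIs in 1 class. Named genes were the list members, the 10 highest ratios over T cells and macrophages at 100 CPM or more, the 5 highest and lowest per subset at 50 CPM or more, and the 5 most correlated with Fcer2a and Cr2. Srm was named after its values were seen. A few list members are not reported here. A group of 1 library allows no p-value. Ratios and thinning were tested on simulated data.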

Additional observations from a re-analysis of the deposited data

How the results depend on the processing

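No paired analysis was possible because each group had 1 library, and for the same reason no replicate could be left out. Of 103 recomputed values, 77 stayed within the interval or within 1.5 times the count and 26 moved. Only the differences in share could change sign, and 0 of them did. The share of B cells was 7.73 points higher in the antibody than in the IgG library with Cd79a at 1 UMI or more, 5.30 at 3 or more and 4.58 with Ms4a1 and Cd79b both required. Against the Matrigel library these were 7.82, 5.35 and 4.63 points. The IgG minus Matrigel difference was 0.0504 points under the last 2 rules, with intervals that included 0. Thinning to 500 UMIs put Ighd, Ighm, Fcer2a and Cr2 in 56.2%, 81.6%, 24.1% and 14.4% of B cells. At 2000 UMIs Ighd, Fcer2a and Cr2 were in 82.7%, 54.3% and 46.9%. Keeping cells with a Cd3e or Csf1r UMI put Ighm at 90.8% and the genes apart by Fcer2a at 670, against 408. With at least 30 UMIs, 523 genes were higher than in T cells and 38, 41 and 212 were apart by Fcer2a, Cr2 and Ighd. With no minimum beyond 1 UMI these were 2263, 2666, 2602 and 4527, and 7134 were higher than in macrophages. Fewer or more genes were tested in those settings, and other causes were not tested. The mixed light chain share was 89.0% at a limit of 95% and 50% with at least 20 UMIs. The 6 cells with macrophage UMIs and the barcodes in more than 1 library were left out as alternatives chosen after seeing the data.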

Other observations

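Transcripts of plasma cells were looked for in all cells of the antibody library, not only in the B cells. Jchain had 7 UMIs in 7 cells, none with 5 or more. Sdc1, which other cells also express, had 2805 UMIs. Ighg2b had 18 UMIs in 4 cells, 2 of them with at least 5, and Ighg3 had 12 UMIs in 11 cells. Ighg1 and Ighe had 0 UMIs.

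Cxcl13, the chemokine that draws cells with CXCR5, was counted over all cells of each library. It had 457 UMIs in 47 cells of the antibody library (12.1 CPM). In the IgG library Cxcl13 had 467 UMIs in 67 cells (10.1 CPM), and in the Matrigel library 452 UMIs in 124 cells (10.2 CPM). Whether Cxcl13 had a part in the share of B cells was not tested.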
